A study of Mus musculus with 8 samples.

Results

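Intraflagellar transport and ciliary gate genes were followed across RNA-seq libraries of sorted mouse airway epithelial cells. The genes were taken by symbol: the numbered genes of 5 ciliary families, among them Ift, Bbs, Tctn and B9d, and 19 further named genes. They came to 49 of the 25124 genes in the table, and the rule itself uses symbols alone, though it was written with earlier results of these data known. The cells were sorted by flow cytometry from lungs of C57BL/6 mice of 2 genotypes, STAT3-WT (wild type, WT below) and STAT3-cKO (a conditional knockout of the transcription factor STAT3, cKO below). Each genotype was given HDM (house dust mite, an allergen) or PBS (buffered saline), which makes 4 groups of 2 libraries, named WT PBS, WT HDM, cKO PBS and cKO HDM. The cells in which the knockout acts, the driver of the deletion, the allergen schedule and the age of the mice are unknown here. Whether replicates are different mice is not labelled, so p-values refer only to library-to-library spread, and that may be technical.

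A cilium is built and kept up by intraflagellar transport, in which trains of IFT-B and IFT-A protein complexes carry cargo along the axoneme. Kinesin-2 (KIF3A, KIF3B and KIFAP3) moves the trains to the tip and dynein-2 (DYNC2H1 with DYNC2LI1) brings them back. The BBSome, a coat-like complex recruited by the small GTPase ARL6, takes membrane proteins out of the cilium, and ARL3 releases lipid-modified cargo inside it. The ciliary gate, or transition zone, holds the tectonics, the B9 proteins and CEP290 and controls what enters. Multiciliated airway cells carry many motile cilia and use this machinery heavily, and most other lung cells can form a single primary cilium with the same parts. By role, 13 of the genes belong to IFT-B, 7 to IFT-A with its adaptor TULP3, 5 to the motors, 12 to the BBSome, its chaperonins and the ARL proteins, and 12 to the gate.

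Values are normalized counts, that is, reads per gene after the authors' scaling of each library. Libraries held 232556 to 593200 reads. The correlation of replicates across the tested genes was lowest for cKO PBS (0.56), then WT HDM (0.68), and 0.77 for the other groups. Stat3, the targeted gene, stood at 134 and 157 (WT) and 76.9 and 92.2 (cKO) with HDM, and 75.8 and 40.9 (WT) and 56.9 and 96.5 (cKO) with PBS. It was not clearly lower in the libraries labelled cKO (under HDM a log2 difference of -0.78 ± 0.39, limma adjusted p = 0.549; under PBS 0.41 ± 0.39, limma adjusted p = 0.845), so genotypes are used as labelled. A knockout that removes some exons need not lower this total. Epithelial markers were present in every library, as a list of 8 genes, and so were the ciliated cell marker Foxj1 (379.5 to 809.8) and the club cell marker Scgb1a1 (1545 to 4213). The epithelial sum was lowest in WT HDM, at 1300.4 and 1421 against 1615 to 1752 elsewhere. So was the sum of 11 ciliated cell markers, Foxj1 among them, at 3521 and 4359 against 5582 to 7135 elsewhere. The 6 goblet cell markers summed to 1452 to 4125 with HDM and to 335 to 1172 with PBS. The 5 basal cell markers summed to 2.90 to 50.9, with Krt14 at 0 in every library. Both WT HDM libraries carried more transcripts of other lung cells than the other 6. The sums were 10154 and 15008 against 4362 to 6117 for 9 alveolar type 2 markers, 1185 and 1234 against 215 to 389 for 12 endothelial markers, 1167 and 1216 against 34.2 to 103 for 8 fibroblast markers, and 74.996 and 308 against 1.53 to 14.5 for 12 leukocyte markers. In bulk RNA, fewer ciliated cells and less RNA per ciliated cell cannot be told apart.

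RFX factors bind X-box letters in the promoters of many cilium genes, and they act there with FOXJ1. RefSeq promoter windows (GRCm38.p6, the build also called mm10, from 250 bases before to 50 after the start) were found for 43 of the 49 genes, in 47 windows. They were searched on both strands for the RFX core GTTGCC, for an X-box-like pair made of GTNNCC and GGNAAC with 0 to 3 bases between them, and for the forkhead letters GTAAACA. A match of the pair can contain the core. The core stood in 40.4% of the genes' windows and in 12.5% of all 32851 windows. The pair stood in 21.3% of them (10 of 47) and in 2.34% of all windows. The forkhead letters were in none of the 47 windows and in 3.65% of all. These are matches of letters and do not show binding. Stretches are printed for some of the genes that held a match before the start, with capitals marking the core or the pair. Many genes that the results below turn on held none there. Wdr19, Bbs9, Kifap3 and Cluap1 had no match in their windows. Dync2h1 and Ift88 held the core only after the start, and for Dync2li1 no window was found. Traf3ip1 had the highest level of the set, Kif3a was among the genes with the smallest p under HDM, and Bbs7 was lowest in both WT HDM libraries. Ift57 and Ift22 held 2 pairs each, and Tctn2 and Tctn3 are gate genes with a pair, described below for PBS.
Traf3ip1, chr1:91494569-91494614, plus strand: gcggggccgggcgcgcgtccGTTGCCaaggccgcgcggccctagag
Kif3a, chr11:53567251-53567296, plus strand: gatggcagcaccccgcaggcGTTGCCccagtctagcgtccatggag
Bbs7, chr3:36613477-36613530, minus strand: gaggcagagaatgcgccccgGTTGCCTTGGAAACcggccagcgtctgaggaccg
Ift57, chr16:49699187-49699266, plus strand: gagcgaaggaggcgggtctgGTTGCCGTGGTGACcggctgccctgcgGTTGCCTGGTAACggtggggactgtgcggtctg
Ift22, chr5:136908067-136908149, plus strand: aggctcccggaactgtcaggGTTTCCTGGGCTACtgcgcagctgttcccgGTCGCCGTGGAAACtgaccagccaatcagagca
Tctn2, chr5:124598667-124598720, plus strand: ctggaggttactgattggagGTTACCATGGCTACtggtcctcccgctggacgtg
Tctn3, chr19:40612339-40612391, minus strand: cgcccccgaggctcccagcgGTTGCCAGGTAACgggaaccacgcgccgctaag

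The genes were of low to moderate level. Per kb of annotated exon (GENCODE M21, mean over the 8 libraries), Traf3ip1, which encodes the IFT-B subunit IFT54 and links the train to tubulin, was first at 77.2 normalized counts. Ift20 at 30.4, the motor gene Dync2li1 at 27.97, Ift43 at 24.8 and Ift74 at 20.9 followed. Traf3ip1 was above every other gene of the set on this scale in each of the 4 group means, from 60.9 in WT HDM to 87.8 in cKO HDM. The order of the next genes was not firm, since Ift20 alone ranged from 22.2 to 87.6 normalized counts over the libraries and stood between 14.7 (WT PBS) and 40.5 (cKO PBS) per kb in the group means. By role, the highest mean counts were those of Traf3ip1 (287) in IFT-B, Wdr35 (91.9) in IFT-A, Kif3a (64.0) among the motors, Bbs9 (43.2) among BBSome genes and Cep290 (74.1) in the gate. These means are not corrected for length. The regulator Foxj1 stood at 216 per kb and the axonemal dynein heavy chain Dnah5 at 24.3 per kb.

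Of the 49 genes, 44 had a mean of at least 10 normalized counts and were tested. Ttc21b (0 to 16.4 over the libraries), Bbs5 (1.82 to 15.2), Mks1, Bbs10 and Bbs12 did not reach it. Among the tested genes that are not described one by one, the median over libraries ran from 11.6 (B9d2, which was at 0 in its lowest library) to 73.5 (Ift172). The limit that a count of 0 allows, 3 reads, equals between 1.96 and 4.88 normalized counts, by library. Mks1, a gate gene, stood at 18.9 and 11.6 (WT) and 10.2 and 13.3 (cKO) with HDM. With PBS it stood at 3.83 and 1.82 (WT) and 8.13 and 0 (cKO), so that each HDM library was above each PBS library. These are 9 to 29 reads with HDM and 0 to 5 with PBS. How many of all genes show this pattern was not counted. The chaperonin genes Bbs10 and Bbs12 were highest in cKO PBS, Bbs10 at 9.76 and 7.62 and Bbs12 at 16.3 and 11.4, against at most 3.91 and 3.26 in the other 6 libraries. In cKO PBS these are 6 to 10 reads each. The first WT HDM library, the deepest, held as many reads of Bbs10 (6) as each cKO PBS library, and 5 of Bbs12. Some genes overlap another gene on the opposite strand, Bbip1 with Shoc2 (mean 33.2), Bbs12 with Cetn4 (27.1), Tctn1 with Hvcn1 (13.5) and Bbs4 with Adpgk (8.29). The use of strand in counting is not given in the sources used here, so reads of such neighbours cannot be told apart.

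The summed level of the 49 genes was lowest in WT HDM. With HDM it stood at 1613 and 1454 normalized counts (WT) and at 2479.6 and 2259 (cKO). With PBS it stood at 2278 and 2302 (WT) and at 2370.1 and 2397 (cKO). Both WT HDM libraries lay below all 6 others, which spanned a narrow range. As a share of reads the genes took 0.417% (95% Clopper-Pearson interval 0.401 to 0.434) and 0.355% (0.335 to 0.376) in WT HDM, against 0.599% to 0.669% elsewhere. The intervals reflect counting error alone, as without molecular identifiers a read is not an independent molecule. Without Traf3ip1 the sums were 1372 and 1243 in WT HDM and 1914 to 2173 in the other libraries, so the pattern did not rest on the most abundant gene. For 8 of the 44 tested genes (Bbs7, Bbs9, Dync2h1, Ift43, Ift88, Traf3ip1, Wdr19 and Wdr35) both WT HDM libraries were below each of the other 6, and for none were both above. Over all genes tested, 6.16% showed the former pattern and 8.99% the latter. The patterns were looked for after the sums had been seen. The part of the alveolar, endothelial, fibroblast and leukocyte transcripts, which were highest in the same libraries, was not tested.

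**Figure D1:**
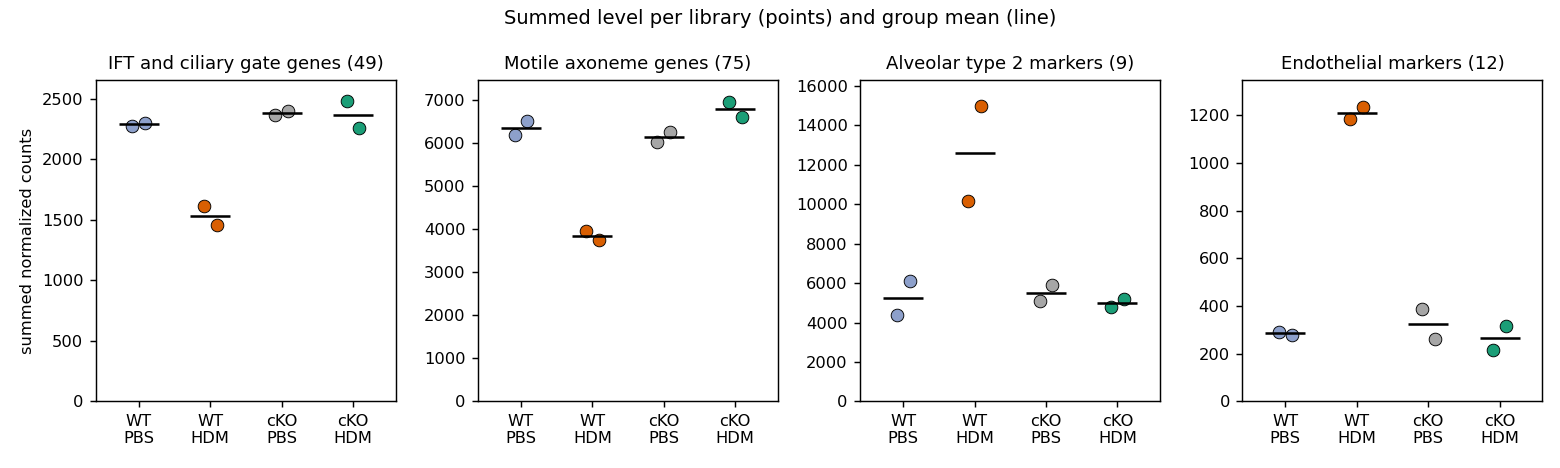
Summed normalized counts (y axis) in each library (points) and group mean (lines) for the 49 intraflagellar transport and ciliary gate genes, 75 motile axoneme genes, 9 alveolar type 2 markers and 12 endothelial markers. Both ciliary sums were lowest in the WT HDM libraries, and both marker sums were highest in them.

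The study's title names HDM-treated mice of both genotypes, and these were compared first. Of the 44 tested genes, 43 had a higher mean in cKO HDM than in WT HDM, and the median log2 difference was 0.55, against 0.02 over all 7512 genes tested. In 28 of the 44 both cKO HDM libraries were above both WT HDM libraries, a pattern that 21.1% of all genes showed, and none had the opposite, shown by 21.9%. No single gene passed at an adjusted p under 0.05 with limma (0.572% of all genes passed), with edgeR (0.719%) or with DESeq2 (1.86%). At an unadjusted limma p under 0.05 there were 11 genes, all higher in cKO, against 9.6% of all genes in either direction. Leaving out 1 library at a time left 81.8% to 97.7% of the genes higher and the median at 0.49 to 0.75. In the same comparison 5 of 9 alveolar type 2, 3 of 5 fibroblast and 2 of 11 endothelial markers tested were called lower in cKO by limma, and their part in the values of the set was not tested. Without the filter on low values, 45 of the 49 were higher, with a median of 0.52.

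The motors had the largest median of the 5 roles, 1.30, and each of the 5 genes was higher in cKO HDM. Their summed level was 207 in the first and 101 in the second WT HDM library, against 262 to 366 in the others. This spread enters every motor median that uses WT HDM, and medians by role were not computed with a library left out. Dync2h1, the dynein-2 heavy chain, stood at 24.8 and 12.9 (WT) and 65.3 and 44.9 (cKO) with HDM, and 68.1 and 59.1 (WT) and 68.3 and 53.3 (cKO) with PBS. Only the WT HDM libraries were low, and they did not overlap with any other library. Its log2 difference of cKO against WT under HDM was 1.54 ± 0.47 (95% interval 0.55 to 2.54, limma adjusted p = 0.203). Dync2li1, the light intermediate chain of the same motor, stood at 33.9 and 33.5 (WT) and 76.2 and 68.1 (cKO) with HDM, and 54.3 and 65.5 (WT) and 53.7 and 33.0 (cKO) with PBS. The cKO HDM libraries were the highest of all, and the second cKO PBS library was as low as those of WT HDM. The difference was 1.07 ± 0.42 (limma adjusted p = 0.418). Kif3a, a kinesin-2 motor subunit, stood at 53.5 and 30.9 (WT) and 108.8 and 75.6 (cKO) with HDM, a difference of 1.14 ± 0.45 (limma adjusted p = 0.418). With PBS it held 88.0 and 42.7 (WT) and 55.3 and 57.1 (cKO), so that its WT HDM and WT PBS libraries overlapped. Its partner Kif3b at 1.35 ± 0.59 and the adaptor Kifap3 at 1.30 ± 0.57 had wide errors (limma adjusted p = 0.483 for both), and in Kif3b the groups overlapped, since the WT HDM libraries held 57.4 and 11.6.

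In IFT-B, the anterograde complex, all 13 genes were higher in cKO HDM, with a median of 0.53. Cluap1, which encodes IFT38, had the largest difference at 2.004 ± 0.77 (limma adjusted p = 0.4). It stood at 20.2 and 2.58 (WT) and 35.6 and 32.4 (cKO) with HDM, while WT PBS held 13.0 and 30.9 and cKO PBS 104 and 50.8, and without the second WT HDM library the difference was 0.72. Ift88, a core subunit without which cilia are not built, stood at 43.0 and 50.3 (WT) and 95.8 and 78.1 (cKO) with HDM, and 71.2 and 90.0 (WT) and 68.3 and 87.6 (cKO) with PBS. Its WT HDM libraries were below all others, and the difference was 0.88 ± 0.36 (limma adjusted p = 0.451). Traf3ip1, with the smallest standard error of the set, stood at 241 and 211 (WT) and 306 and 346 (cKO) with HDM, and 314 and 315 (WT) and 307 and 253 (cKO) with PBS. Its difference was 0.53 ± 0.24 (95% interval 0.02 to 1.03, limma adjusted p = 0.497).

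In IFT-A, the retrograde complex, all 6 tested genes were higher in cKO HDM without overlap (21.1% of all genes), with a median of 0.62. Wdr19, which encodes IFT144, stood at 21.5 and 20.6 (WT) and 41.4 and 44.02 (cKO) with HDM, and 50.5 and 76.4 (WT) and 56.9 and 71.1 (cKO) with PBS. Both HDM groups were below both PBS groups, WT HDM further than cKO HDM, and the difference between genotypes under HDM was 0.98 ± 0.44 (limma adjusted p = 0.49). Wdr35, which encodes IFT121, stood at 54.1 and 68.3 (WT) and 119 and 86.4 (cKO) with HDM, a difference of 0.73 ± 0.34 (limma adjusted p = 0.515). Its PBS libraries held 92.7 to 114, between those of cKO HDM.

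All 9 tested genes of the BBSome and ARL role were higher in cKO HDM, with a median of 0.91 and a range from 0.03 (Arl3) to 1.75 (Bbs4). Bbs9, a scaffold subunit of the BBSome, stood at 22.2 and 15.5 (WT) and 64.6 and 47.3 (cKO) with HDM, and 41.3 and 46.4 (WT) and 78.1 and 30.5 (cKO) with PBS. The WT HDM libraries were lowest, and the cKO PBS libraries differed widely from each other. Its difference under HDM was 1.53 ± 0.52 (95% interval 0.42 to 2.64, limma adjusted p = 0.317). Bbs4 stood at 3.91 and 9.02 (WT) and 29.0 and 17.4 (cKO) with HDM, a difference of 1.75 ± 0.87 (limma adjusted p = 0.547), and reads of Adpgk on the other strand may be among them.

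The gate genes differed least, with a median of 0.20, and 10 of 11 were higher in cKO HDM. Cep290, a long coiled-coil protein that bridges membrane and microtubules in the transition zone, stood at 49.6 and 58.0 (WT) and 61.0 and 105.5 (cKO) with HDM, and 75.01 and 56.4 (WT) and 73.2 and 114 (cKO) with PBS. In the gate, 4 of 11 genes (Cc2d2a, Cep290, Rpgrip1l and Tctn2) had cKO HDM above WT HDM without overlap (21.1% of all genes). Tctn3, a tectonic, was the 1 gene of the 44 with a lower mean, at -0.29 ± 0.88. Whether the roles differ from each other was not tested.

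**Figure D2:**
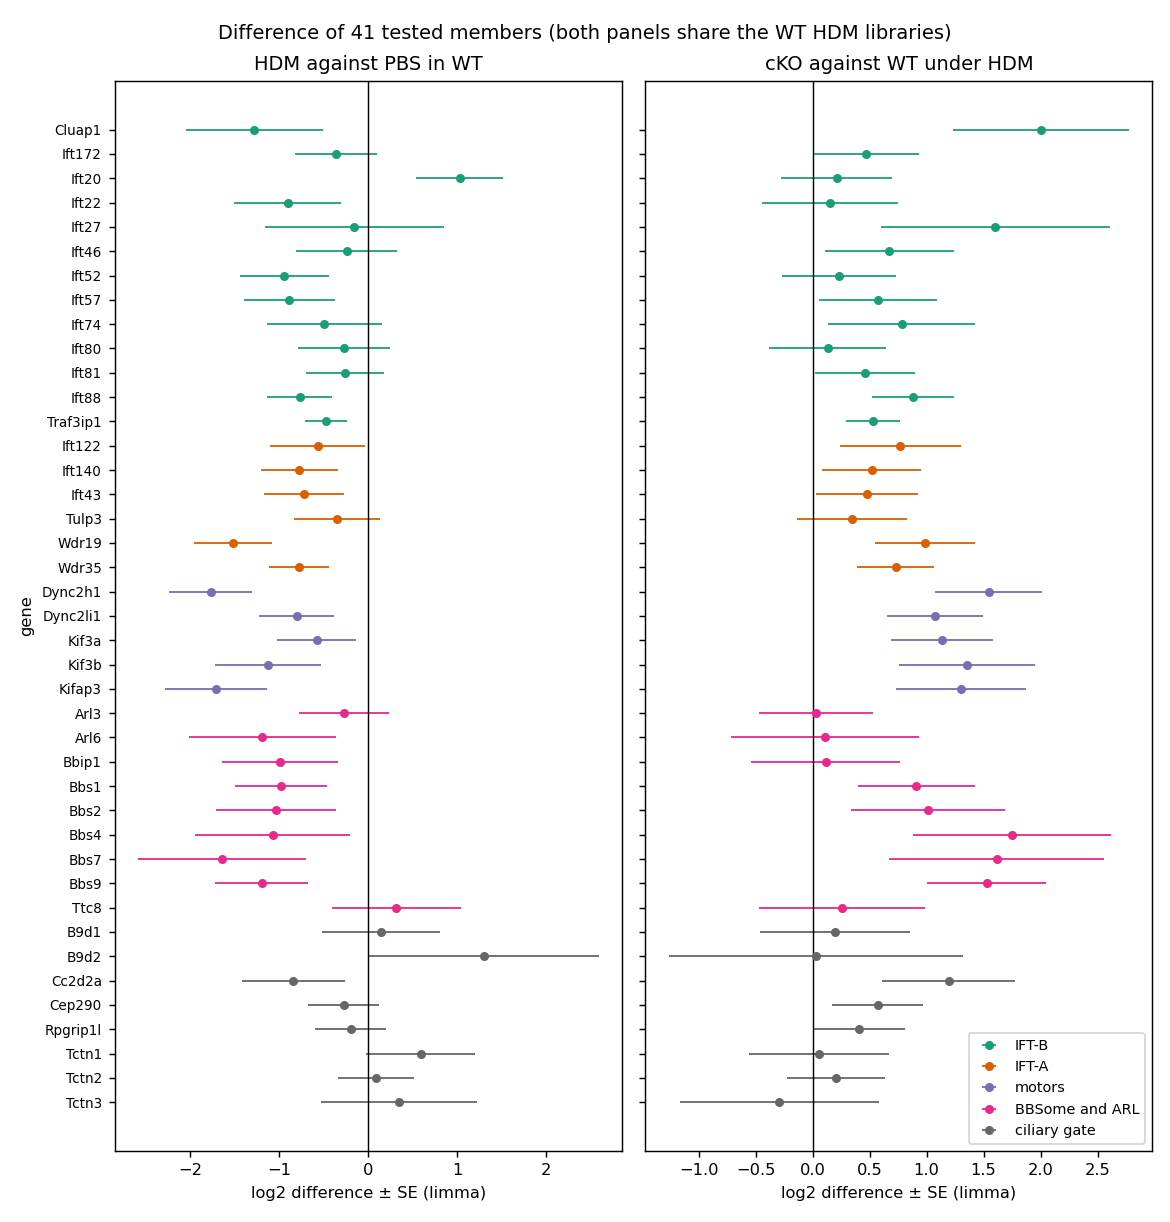
Log2 difference with its limma standard error (x axis) for 41 of the 44 tested genes (y axis), coloured by role, for HDM against PBS in WT and for cKO against WT under HDM. Points lie mostly left of 0 in the first and, except Tctn3, right of 0 in the second, and the WT HDM libraries enter both.

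HDM was next compared with PBS in WT mice. This comparison shares the WT HDM libraries with the previous one, so the lists are not independent of each other. Of the 44 genes, 37 were lower under HDM, with a median log2 difference of -0.75 against -0.03 over all genes tested. In 21 both HDM libraries were below both PBS libraries (20.8% of all genes), and in 2, Ift20 and Tctn1, they were above (21.2% of all genes). No gene passed with limma (0.519% of all genes), edgeR (0.785%) or DESeq2 (1.78%). Over all genes 8.93% had an unadjusted limma p under 0.05, in either direction. A number near that share did so here, 5 of the 44 genes, all lower. The median was -0.59 without the first and -0.49 without the second WT HDM library.

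Dync2h1 had the smallest p, with a difference of -1.77 ± 0.47 (95% interval -2.76 to -0.78, limma adjusted p = 0.143, edgeR adjusted p = 0.147). When only the 4 WT libraries were fitted it passed (limma adjusted p = 0.0491), in a fit that called 2.53% of all genes, so that 1 call among 44 genes is near the background. Wdr19 followed at -1.52 ± 0.44 (limma adjusted p = 0.2). Kifap3, the kinesin-2 adaptor, stood at 37.8 and 11.6 in WT HDM and 80.4 and 63.7 in WT PBS, with 63.9 and 44.9 in cKO HDM and 32.5 and 81.3 in cKO PBS, a difference of -1.71 ± 0.57 (limma adjusted p = 0.316). It was -0.90 when the second WT HDM library was left out. Wdr35 stood at -0.78 ± 0.34, Bbs9 at -1.20 ± 0.52 and Ift88 at -0.77 ± 0.36, each without overlap and none past the threshold.

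By role, the median in WT was -1.12 for the motors, -1.04 for the BBSome and ARL genes, -0.75 for IFT-A, -0.48 for IFT-B and -0.19 for the gate. All 5 motor and all 6 IFT-A genes were lower, as were 12 of 13 in IFT-B, 8 of 9 in the BBSome and ARL role and 6 of 11 in the gate. Ift20, which encodes the IFT-B subunit that also sits at the Golgi, was the exception in IFT-B. It stood at 51.5 and 42.5 (WT) and 51.5 and 57.3 (cKO) with HDM, and 22.2 and 22.7 (WT) and 35.8 and 87.6 (cKO) with PBS. The WT PBS libraries were the low ones here, and the difference of HDM against PBS in WT was 1.03 ± 0.49 (limma adjusted p = 0.564). All 3 tectonic genes, Tctn1 at 0.59, Tctn2 at 0.09 and Tctn3 at 0.35, had a higher mean under HDM, with standard errors of 0.61, 0.43 and 0.88.

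**Figure D3:**
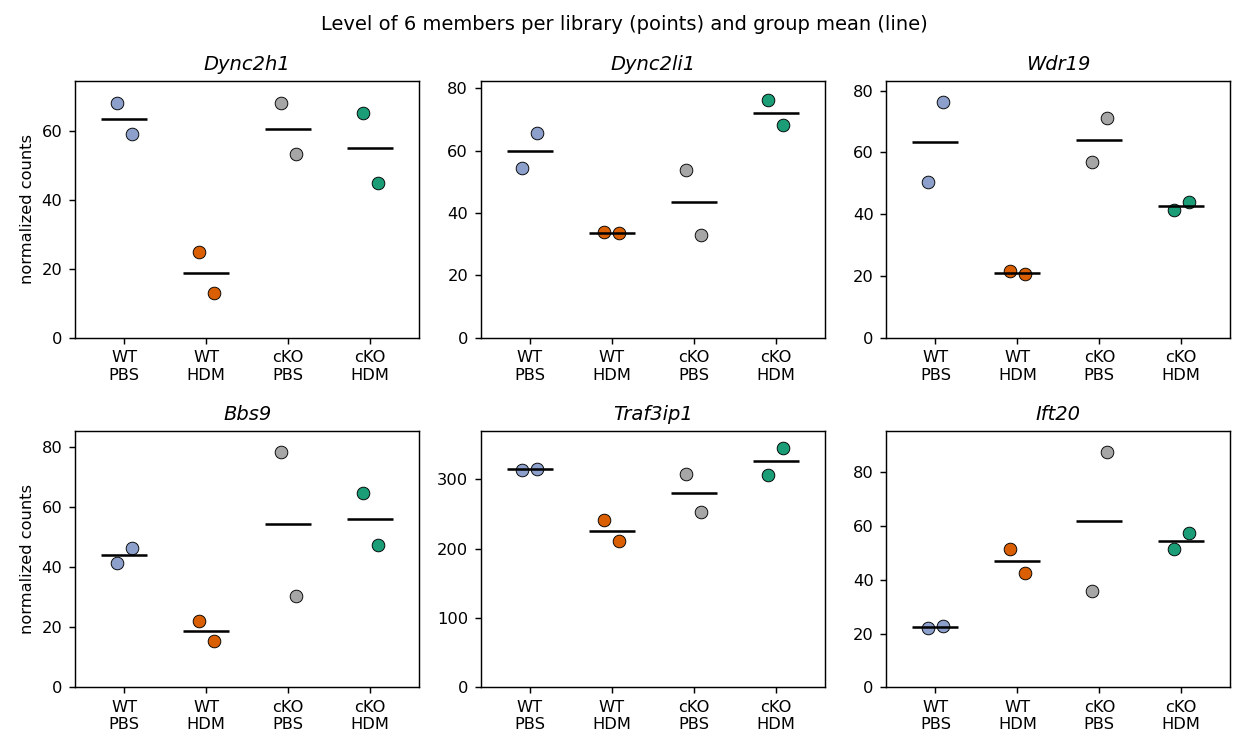
Normalized counts (y axis) of Dync2h1, Dync2li1, Wdr19, Bbs9, Traf3ip1 and Ift20 in each library (points) with group means (lines). The WT HDM libraries are lowest for Dync2h1, Wdr19, Bbs9 and Traf3ip1, while for Ift20 the WT PBS libraries are lowest.

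HDM was then compared with PBS in the libraries labelled cKO, which share the cKO HDM libraries with the first comparison. The median log2 difference was 0.05 against 0.10 over all genes tested, with 26 of the 44 higher and 18 lower under HDM. The HDM libraries were above the PBS libraries without overlap in 7 (19.0% of all genes) and below in 9 (16.7%). No gene of the set passed with limma (0.0532% of all genes), edgeR (0.0532%) or DESeq2 (0.373%), and none had an unadjusted limma p under 0.05 (7.77% of all genes). Dync2li1 stood at 0.76 ± 0.42, Tctn2 at -0.76 ± 0.43, Tctn3 at -1.52 ± 0.88, Tulp3, an IFT-A adaptor for membrane receptors, at 0.82 ± 0.48, and Ift27, a small GTPase of IFT-B, at 1.585 ± 1.003. Ift27 is low, at 20.3 and 34.1 in cKO HDM, 16.3 and 3.81 in cKO PBS, 15.7 and 3.87 in WT HDM, and 9.95 and 8.18 in WT PBS, and it stood at 0.66 without the second cKO PBS library. Without 1 of the cKO PBS libraries, Dync2li1 reached 0.42, Tctn3 -0.84 and Tulp3 0.19. Dync2h1 stood at -0.15 ± 0.47 here, with a 95% interval of -1.15 to 0.84, and its cKO libraries overlapped between treatments. Without the second cKO PBS library, Ift74 passed (limma adjusted p = 0.0302), in a fit that called 4.26% of all genes. There cKO PBS is a single library, assumed to vary like the other groups. The omitted library held 92.7 and the first 14.6, against 68.9 in both cKO HDM libraries.

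The genotypes were also compared without allergen, with a median of -0.06 against -0.09 over all genes tested, 21 higher and 23 lower in cKO. The cKO PBS libraries were above those of WT PBS without overlap in 5 genes (15.7% of all genes) and below in 9 (19.1%). None of the set passed with any of limma, edgeR and DESeq2, which each called 0% of all genes. Over all genes 6.96% had an unadjusted limma p under 0.05, in either direction. A number near that share did so in the set, 4 of 44 genes, all higher in cKO PBS. They were Ift20 at 1.28 ± 0.49, the tectonics Tctn2 at 1.054 ± 0.43 and Tctn1 at 1.47 ± 0.61, and Cluap1 at 1.80 ± 0.77 (limma adjusted p = 0.694 for each). Leaving out 1 library moved Ift20 to between 0.65 and 1.92 and Cluap1 to between 1.21 and 2.40, with Ift20 lowest without the second cKO PBS library and Cluap1 lowest without the first WT PBS library. Tctn2 stood at 66.7 and 88.9 in cKO PBS, 30.6 and 43.6 in WT PBS, 40.4 and 37.4 in WT HDM, and 48.6 and 41.5 in cKO HDM, so that only the cKO PBS libraries were high. Tctn1 held 35.8 and 44.4 in cKO PBS, 13.8 and 13.6 in WT PBS, and 15.8 to 30.5 under HDM. Tctn3 held 19.5 and 52.1 in cKO PBS and 12.2 and 8.18 in WT PBS, with 6.45 to 25.4 under HDM, a difference of 1.58 ± 0.88 (limma adjusted p = 0.741). Tulp3 stood the other way at -0.83 ± 0.48, with 19.5 in the first and 48.3 in the second cKO PBS library, 48.99 and 62.7 in WT PBS, and 38.7 to 59.8 under HDM. Tctn3 stood at 0.90 without the second and Tulp3 at -0.20 without the first cKO PBS library. By role the gate had a median of 0.42, with 9 of 11 higher, and IFT-A one of -0.34, with 5 of 6 lower. The 6 club cell markers, all higher in cKO PBS, summed to 14944 and 11058 there and to 9207 and 8542 in WT PBS. Their part in the values of the set was not tested.

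The interaction asks whether the difference between HDM and PBS depends on genotype, and is given as cKO minus WT. Of the 44 genes 36 were positive, with a median of 0.73 against 0.16 over all genes tested. None passed with limma (0.0266% of all genes), edgeR (0.0932%) or DESeq2 (0.367%). Over all genes 7.77% had an unadjusted limma p under 0.05, in either direction. A number near that share did so here, 4 of the 44 genes. They were Dync2li1 at 1.57 ± 0.60 (limma adjusted p = 0.558), Dync2h1 at 1.61 ± 0.66 (limma adjusted p = 0.593), Bbs1, a BBSome subunit bound by ARL6, at 1.65 ± 0.73 (limma adjusted p = 0.623) and Kifap3 at 1.77 ± 0.81 (limma adjusted p = 0.632), which was 0.96 without the second WT HDM library. Bbs1 stood at 29.3 and 16.8 (WT) and 48.6 and 37.4 (cKO) with HDM, and 45.9 and 43.6 (WT) and 22.8 and 30.5 (cKO) with PBS. Traf3ip1 stood at 0.70 ± 0.34 and Kif3a at 1.26 ± 0.63. The median was 1.57 for the motors, 0.97 for IFT-A, 0.87 for the BBSome and ARL genes, 0.43 for IFT-B and 0.09 for the gate, where 6 of 11 were positive.

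**Figure D4:**
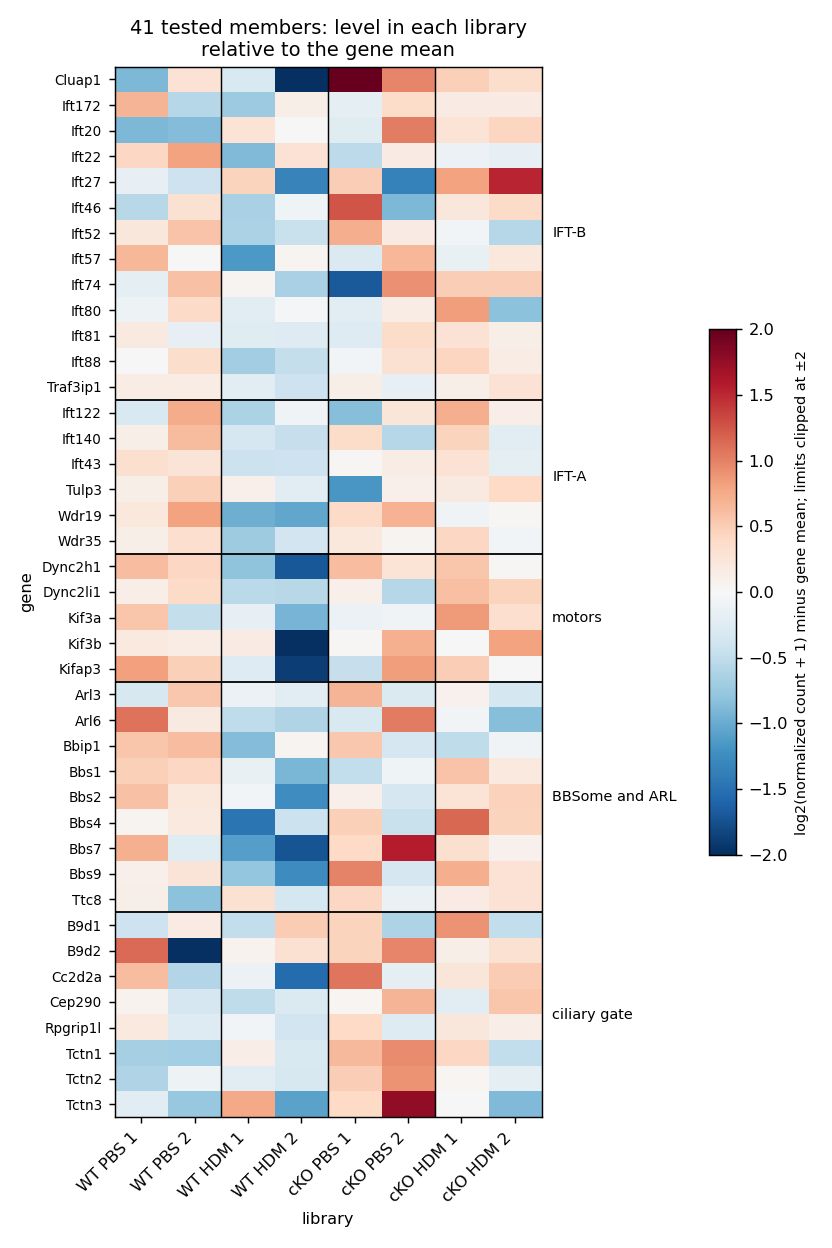
Level of 41 of the 44 tested genes (rows, by role) in each library (columns), as log2(normalized count + 1) minus the mean of that gene over the 8 libraries, with colours clipped at ±2. The WT HDM columns are mostly blue from IFT-B to the BBSome and mixed in the gate, and single strong cells in the cKO PBS columns differ between its replicates.

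Other cilium genes were examined beside the set. Of 68 tested motile axoneme genes, which build the beating apparatus, 67 were higher in cKO HDM than in WT HDM, with a median of 0.82, and 53 showed no overlap (21.1% of all genes). Dnah5 was higher in cKO HDM than in WT HDM, at 1.13 ± 0.24 (limma adjusted p = 0.0439). It was the 1 axoneme gene of the 68 that passed with limma, where 0.572% of all genes passed. Next came Ccdc40 at 0.98 ± 0.26 and the dynein gene Dnah9 at 1.39 ± 0.38. Dnah5 stood at 199.6 and 236 (WT) and 449 and 502 (cKO) with HDM, and 375 and 447 (WT) and 467 and 363 (cKO) with PBS. The WT HDM libraries were the low ones. Of 12 tested ciliogenesis regulators, 11 were higher, with a median of 0.77 and none past the threshold with limma. Foxj1 stood at 0.94 ± 0.23 (limma adjusted p = 0.0952, edgeR adjusted p = 0.0671, DESeq2 adjusted p = 0.0044), the regulator Myb at 1.12 ± 0.47 (limma adjusted p = 0.456), Rfx3 at 1.12 ± 0.56 (limma adjusted p = 0.547) and Rfx2 at 0.38 ± 0.63 (limma adjusted p = 0.927). Of 34 further tested trafficking and gate genes, 29 were higher, with a median of 0.70 and none past the threshold. The smallest p values among these were those of Lztfl1, a regulator of BBSome traffic, at 2.26 ± 0.82, Rp2, which acts on ARL3, at 2.82 ± 1.08, and Ttbk2, a kinase that starts ciliogenesis, at 2.68 ± 1.06. Rp2 and Ttbk2 held no read in the second WT HDM library.

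For HDM against PBS in WT, 63 of the 68 axoneme genes were lower, with a median of -0.61, as were 10 of 12 regulators (median -0.70) and 28 of 34 further genes (median -0.76), and none passed with limma. The smallest p values were those of Dnah6 at -1.11 ± 0.26, Cfap54 at -1.50 ± 0.36 and Dnah5 at -0.91 ± 0.24 (limma adjusted p = 0.0934, 0.0946 and 0.128) in the axoneme list. Among regulators they were those of Myb at -1.13 ± 0.47, E2f4 at 1.45 ± 0.63 and Foxj1 at -0.49 ± 0.23. The dynein-2 intermediate chain gene Wdr34 stood at 6.52 and 19.3 in WT HDM and 43.6 and 64.6 in WT PBS, a difference of -2.13 ± 0.63 (limma adjusted p = 0.209). Ttbk2 at -3.42 ± 1.06 and Arl13b, a GTPase of the ciliary membrane, at -2.14 ± 0.75 followed.

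The sum of the set was also set against that of the axoneme genes within each library. The sum of the set divided by that of the 75 axoneme genes was 0.408 and 0.389 (WT) and 0.357 and 0.342 (cKO) with HDM, and 0.368 and 0.354 (WT) and 0.393 and 0.384 (cKO) with PBS. The ratio in WT HDM lay close to that in cKO PBS, whereas the sums themselves differed. For the gate genes alone it was 0.0934 and 0.0853 (WT) and 0.0651 and 0.0661 (cKO) with HDM, and 0.0706 and 0.0566 (WT) and 0.0880 and 0.0865 (cKO) with PBS. For the motors it was 0.0525 and 0.0269 in WT HDM and 0.0435 to 0.0566 in the others. Under HDM the group mean of the summed set was 1.55-fold higher in cKO than in WT and that of the axoneme genes 1.76-fold higher. Divided by the sum of the 11 ciliated cell markers, the set stood at 0.458 and 0.334 (WT) and 0.373 and 0.382 (cKO) with HDM. With PBS it stood at 0.408 and 0.364 (WT) and 0.332 and 0.375 (cKO). On that scale the WT HDM libraries lay on either side of those of cKO HDM. These ratios are descriptions of 2 libraries a group and were not tested.

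Replicate spread limited single genes. The 2 libraries of a group differed by more than 2-fold in 14 of the 44 genes for cKO PBS, 12 for WT HDM, 7 for WT PBS and 3 for cKO HDM. Over all genes tested the shares were, in the same order, 40.2%, 28.6%, 20.8% and 22.0%. In cKO PBS, the shallowest group, Ift74 stood at 14.6 and 92.7 and Ift46, an IFT-B subunit that carries outer dynein arms, at 145 and 31.7. In cKO HDM both genes were close between replicates, Ift74 at 68.9 in both and Ift46 at 70.4 and 78.9.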

How the data were processed

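RNA-seq was made from 8 libraries, 2 in each of 4 groups, which were taken from the sample titles. The deposited table holds a signal value per gene and library, reads divided by a size factor by the authors. Per the submitters' processing notes, HOMER, DESeq2 and the build mm10 were used. The aligner and the strand setting were not given in the sources used here.

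Every value was a whole multiple of 1 step in its library (100% within 0.01 reads), which recovered the reads. The 7512 genes with a mean of at least 10 were fitted as log2(value + 1) with 1 mean per group over all 8 libraries in limma 3.58.1 (R 4.3.3, eBayes with a trend). Adding 1 pulls fold changes of low genes toward 0, but a single library at or near 0 can enlarge them. B9d2 stood at 9.78 and 11.6 in WT HDM and 21.4 and 0 in WT PBS, with a difference of 1.30 ± 1.29. P-values are two-sided, adjusted by Benjamini-Hochberg over all genes tested, with a threshold of 0.05. Errors after ± are limma standard errors. edgeR 4.0.16 and DESeq2 1.42.0 were run on the recovered reads. The limma step was checked on simulated data for false calls and for the direction of large changes. That check does not show whether changes of the size seen here would be called. Other alternatives were pseudocounts of 5 and 0.2, other filters, scalings and variance models, a replicate block, fits of the compared groups, and each library left out.

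The members, lists and tests were chosen with earlier results of these data known. Shown with values are the 6 genes of smallest p in each comparison and the highest gene of each role. 1 of these genes is not reported here, and figures of single genes leave out 3 tested genes. Mks1, Bbs10, Bbs12, Bbs4, Kif3b, Ift74, Ift46 and some non-members were added after their values were seen. No gene list was tested as a set.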

Additional observations from a re-analysis of the deposited data

How the results depend on the processing

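The median over the members kept its direction under every alternative tried for HDM against PBS in WT, cKO against WT under HDM and the interaction. For HDM against PBS in WT it was -0.58 with no filter (49 genes) and -0.58 with a minimum mean of 50 (15 genes), where 0% of the members were higher. With a minimum mean of 50 it was 0.73 for cKO against WT under HDM and 0.82 for the interaction, and with quantile normalization 0.86 for the interaction. For HDM against PBS in cKO, the alternatives that kept all libraries put 52.3% to 86.7% of the members higher, against 59.1% in the main fit. The 86.7% is a share of the 15 genes left by the minimum mean of 50, and the 59.1% one of 44 genes. Over these alternatives the median was 0.03 to 0.11. In the fit of only the groups compared, 1 member (Dync2h1) was called for HDM against PBS in WT, where 2.53% of all genes were called. Leaving out 1 library at a time gave medians of -0.75 to -0.49 for HDM against PBS in WT, 0.49 to 0.75 for cKO against WT under HDM, 0.67 to 0.80 for the interaction, -0.13 to -0.04 for cKO against WT under PBS and -0.00 to 0.09 for HDM against PBS in cKO, and 0 to 1 members called in the latter (Ift74, where 4.26% of all genes were called). The cause of these shifts was not tested. Counts of genes without overlap stayed within 1.5 times under the other scalings. Same-numbered libraries did not deviate together (correlations of -0.02 to 0.02). In libraries this shallow that cannot exclude a pairing by number, and the labels do not say whether there was one. With the replicate block 0 members passed in each of the 5 comparisons and the medians were the same (-0.75 and 0.55 for HDM against PBS in WT and for cKO against WT under HDM). Depth limits single genes, and 5 of 49 fell under the filter.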
